A study of Mus musculus with 6 samples.

Results

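Hypoxia target genes outside glycolysis were examined in a mouse line of group 2 innate lymphoid cells (ILC2s), tissue-resident lymphoid cells that lack clonal antigen receptors and release the cytokines of type 2 immunity. The set held 34 genes, named in advance by symbol, out of 23185 named genes on the arrays, and all 34 had a probe set (Ero1l is written Ero1a in the annotation). The genes were listed because they are known to respond to low oxygen, and the list was drawn up with the comparison of these arrays already known and includes several genes that fell in it. Differences of the members are therefore described here and not tested, and a member is called fallen or risen only by the fit across all genes.

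The arrays labelled Myc knockout held RNA of ILC2 line cells transduced with a lentiviral CRISPR construct whose guide RNA targets the transcription factor gene Myc, and the control arrays held cells given the same construct with a non-targeting guide. Each group had 3 arrays. Both groups came from C57BL/6J mice, grew with 10 ng/ml of the cytokines IL-2 and IL-33, carried GFP from the construct and were sorted as GFP-positive 6 days after transduction. Sorting selects cells that took up the construct and not cells whose Myc gene was cut, and the labels do not say whether a group's arrays came from separate cultures or transductions, so errors measure only the spread between these samples. No low-oxygen treatment is given in the labels.

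Cells sense oxygen through prolyl hydroxylases that mark the alpha subunits of hypoxia-inducible factors (HIFs) for destruction by the VHL ubiquitin ligase. When oxygen falls the alpha subunit persists, pairs with ARNT and binds DNA at hypoxia response elements, whose core is ACGTG or GCGTG. One branch of its targets raises glycolysis. The other, described here, includes secreted factors such as VEGF-A, mitophagy receptors, collagen-modifying enzymes, histone demethylases and regulators of lipid storage, glycogen and mTORC1. In lymphocytes HIF activity can also rise at normal oxygen after cytokine or antigen receptor stimulation. MYC with its partner MAX binds the related sequence CACGTG, which contains ACGTG on both strands.

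Promoter sequence from RefSeq (build GRCm38.p6) was available for 26 of the 34 genes. The sequences below show the 250 bases before the annotated start of Ddit4, Stc2 and Vegfa, which fell, and of Bnip3, whose promoter holds CACGTG. For Ankrd37 and Hilpda, which also fell, 30 bases around an ACGTG are shown. All run 5′ to 3′ on the strand of the gene, and capitals mark a response element core on either strand.
Ddit4, chr10:59951771-59952020, minus strand: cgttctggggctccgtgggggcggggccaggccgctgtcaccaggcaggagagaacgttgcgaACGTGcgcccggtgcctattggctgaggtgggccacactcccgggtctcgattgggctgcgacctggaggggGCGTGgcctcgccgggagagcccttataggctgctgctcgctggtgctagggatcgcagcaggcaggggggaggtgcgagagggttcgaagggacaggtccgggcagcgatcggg
Stc2, chr11:31370062-31370311, minus strand: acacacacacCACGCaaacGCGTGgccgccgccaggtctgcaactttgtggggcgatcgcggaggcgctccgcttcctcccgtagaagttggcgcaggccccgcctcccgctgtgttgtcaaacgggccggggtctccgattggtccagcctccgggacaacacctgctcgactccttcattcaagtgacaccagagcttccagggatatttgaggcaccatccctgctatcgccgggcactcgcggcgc
Vegfa, chr17:46032378-46032627, minus strand: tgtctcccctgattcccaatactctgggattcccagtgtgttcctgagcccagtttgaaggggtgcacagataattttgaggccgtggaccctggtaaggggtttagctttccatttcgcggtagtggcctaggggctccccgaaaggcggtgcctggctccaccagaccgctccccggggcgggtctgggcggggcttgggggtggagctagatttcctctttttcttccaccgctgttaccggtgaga
Bnip3, chr7:138909507-138909756, minus strand: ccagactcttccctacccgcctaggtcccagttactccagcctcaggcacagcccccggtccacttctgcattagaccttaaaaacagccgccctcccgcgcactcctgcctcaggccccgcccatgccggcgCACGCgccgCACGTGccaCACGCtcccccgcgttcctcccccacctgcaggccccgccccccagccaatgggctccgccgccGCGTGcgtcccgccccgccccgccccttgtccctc
Ankrd37, chr8:45999851-45999880, minus strand: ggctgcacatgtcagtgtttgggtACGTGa
Hilpda, chr6:29272569-29272598, plus strand: tggatggccagcggACGTGccccagggcga

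Every role in the set held genes with a lower mean in the arrays labelled Myc knockout, but genes past the threshold stood in fewer roles. Of the 34 genes, 31 were lower and 3 were higher in mean log2 value, where 47.8% of all genes were lower. Among genes above the median of all values 58.0% were lower. The median log2 difference of the 34 (arrays labelled Myc knockout minus control) was −0.23, against 0.0077 over all 23185 genes. Past the threshold over all genes (limma, Benjamini-Hochberg adjusted p under 0.05), 5 fell and 0 rose: Ddit4, Ankrd37, Vegfa, Hilpda and Stc2. These belong to the signalling and stress regulators, the secreted factors and the lipid droplet and glycogen proteins. At that threshold 0.198% of all genes fell and 0.254% rose. By limma's unadjusted p under 0.05, 19 members were lower and 1 was higher, against 7.91% and 6.97% of all genes. Of the 34 genes, 31 lay above the median of all values. Among all 11572 genes above it, 1597 were lower and 899 higher at that p, and 46 fell and 51 rose past the threshold. Since the list was made with this comparison known, nothing is read from these counts. Leaving out any 1 of the 6 arrays left 0 members past the threshold, as did fitting the replicate number as a block, while an intensity trend in the prior variance gave 10 that fell.

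The mean log2 value over the 34 genes was 5.94, 6.02 and 5.93 on the arrays labelled Myc knockout, against 6.26, 6.23 and 6.24 on the control arrays. On this mean the 3 arrays labelled Myc knockout lay below the 3 controls, and the second of them was the highest in its group. The list was made with this comparison known and includes genes that fell in it, so this order is only a description. The groups did not overlap for 20 members, 19 of them lower and 1 higher, where 10.6% of all genes were lower without overlap and 9.25% higher. The members were brighter than most genes, with 31 of 34 above the median of all named values (3.35), and among genes above that median 18.7% were lower without overlap, with a median log2 difference of −0.030.

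Myc mRNA, the target of the guide, was higher on the arrays whose label says knockout, with log2 values of 9.55, 9.79 and 9.73, against 9.27, 9.33 and 9.39 in controls (log2 difference 0.36 ± 0.080 SE, limma's adjusted p = 0.127; exact permutation p = 0.1, two-sided, which is as low as this design can go). A cut in a coding exon need not lower the mRNA, so the groups are called by their labels and every direction rests on those labels. ILC2 marker genes averaged 8.09 to 8.18 on the arrays labelled Myc knockout and 8.07 to 8.10 on controls, with 10 of 12 above the median of all values; the exceptions were Thy1 and Il17rb. Of these markers 7 were apart without overlap, 4 higher and 3 lower, where 9.25% of all genes were higher and 10.6% lower without overlap. Il5, a type 2 cytokine gene, rose (log2 difference 0.49 ± 0.061, limma's adjusted p = 0.0386). List means of markers of other cells were, in the arrays labelled Myc knockout against controls, for T cells 3.24 to 3.35 against 3.29 to 3.37 (4 of 9 markers above the median), for B cells 2.23 to 2.41 against 2.31 to 2.37 (1 of 5), for myeloid cells 2.89 to 3.02 against 2.98 to 3.04 (2 of 9), for mast cells 2.92 to 2.97 against 2.94 to 3.05 (3 of 8), for fibroblasts 2.58 to 2.61 against 2.51 to 2.63 (2 of 10) and for endothelial cells 3.52 to 3.59 against 3.45 to 3.51 (1 of 6). The endothelial ranges did not overlap. Single bright markers in these lists were also apart, although 0 passed the threshold. Itgam, a myeloid integrin gene, was at 5.99 ± 0.15 in the arrays labelled Myc knockout and 6.61 ± 0.13 in controls (mean ± SD, n = 3 each; log2 difference −0.63 ± 0.10 SE, limma's adjusted p = 0.0767). Mcpt8, a basophil protease gene listed with the mast cell markers, differed by −0.47 ± 0.14, the T cell receptor complex gene Cd3g by −0.43 ± 0.13 and the endothelial gene Pecam1, bright in both groups, by 0.25 ± 0.054. The part of these markers in the differences of the hypoxia targets was not tested. In bulk RNA, fewer cells of a type and less RNA per cell cannot be told apart.

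Ddit4 and Ankrd37 had the lowest log2 differences of the set. Ddit4 (also called REDD1), which restrains mTORC1 under hypoxia and other stresses, stood at 5.92, 5.90 and 5.62 in the arrays labelled Myc knockout, against 6.82, 6.82 and 6.79 in controls. It fell 2.00-fold (log2 difference −1.00 ± 0.092), and the gap between the groups exceeded the spread within either. Ankrd37, an ankyrin repeat protein gene, had values of 5.62, 5.82 and 5.82 against 6.65, 6.54 and 6.55 in controls, a 1.77-fold fall. The groups were again far apart for this gene, and leaving out single arrays moved its log2 difference only between −0.86 and −0.76. Among all 23185 genes ranked from the most negative difference, Ddit4 held rank 9 and Ankrd37 rank 15.

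The other regulators of signalling and stress differed less. Ndrg1, named for its repression by N-myc, was at 8.44 on each of the 3 arrays labelled Myc knockout, against 8.93, 8.81 and 8.75 in controls (log2 difference −0.39 ± 0.066). The 3 values of Ndrg1 in the first group are identical to the last digit deposited, as were those of 413 genes there and 554 genes in controls, so their SD of 0 understates the error. Wsb1, a ubiquitin ligase subunit gene, differed by −0.25 ± 0.085 without overlap between the groups. Ier3, an early response gene, was bright in both groups, at 9.90 ± 0.22 in the arrays labelled Myc knockout and 9.99 ± 0.069 in controls (mean ± SD, n = 3 each), and the groups overlapped.

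**Figure D1:**
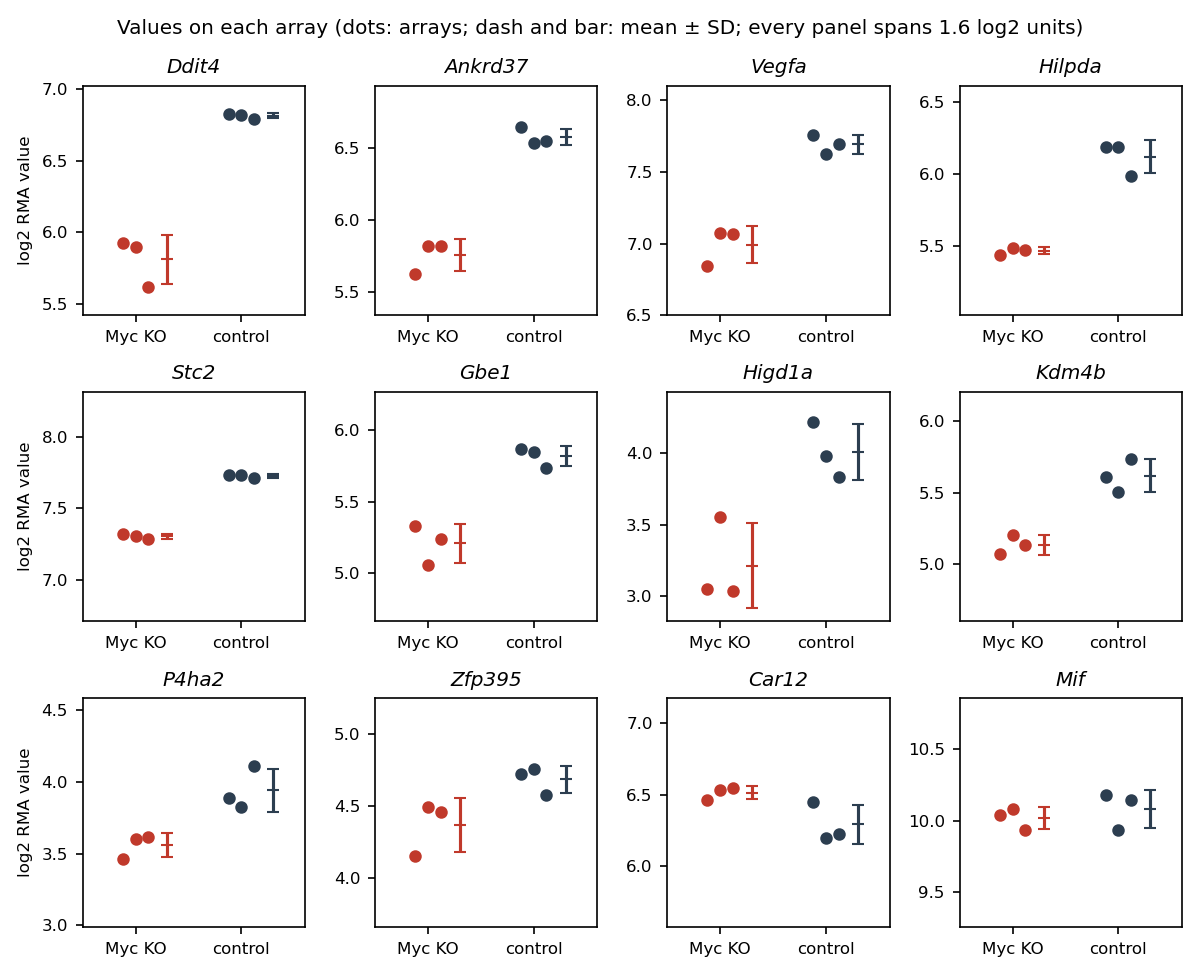
Log2 RMA value (vertical axis) of 12 hypoxia target genes on each array, with the arrays labelled Myc knockout (red) left of the control arrays (dark); dots are arrays, and the dash with bar is the mean ± SD of 3 arrays. The groups are apart in every panel except Mif, and Car12 is the panel in which the arrays labelled Myc knockout are higher.

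Among the genes of secreted factors, Vegfa and Stc2 fell. Vegfa, whose product drives blood vessel growth, had values of 6.84, 7.07 and 7.07 in the arrays labelled Myc knockout, against 7.76, 7.63 and 7.70 in controls, a 1.62-fold fall (log2 difference −0.70 ± 0.082). Stc2, which encodes the secreted glycoprotein stanniocalcin-2, was at 7.32, 7.30 and 7.29 against 7.73, 7.73 and 7.71. Its fall was smaller, 1.34-fold (log2 difference −0.42 ± 0.051), and its SD was small in both groups, at 0.016 in the arrays labelled Myc knockout and 0.011 in controls.

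The other 3 secreted factors did not pass, and their groups overlapped. Mif, a cytokine gene, was at 10.04, 10.08 and 9.93 in the arrays labelled Myc knockout and 10.18, 9.93 and 10.14 in controls (log2 difference −0.066 ± 0.086). Angptl4, an inhibitor of lipoprotein lipase, was at 4.79 ± 0.25 and 4.80 ± 0.18, and its spread between arrays exceeded its difference of −0.0073 ± 0.15. Adm, the adrenomedullin gene, lay below the median of all values in both groups (2.00 ± 0.045 and 1.91 ± 0.17), where the array cannot show a lack of change.

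Of the 5 genes of mitochondrial proteins, all were lower in mean value and 0 passed the threshold. In mean value 47.8% of all genes and 58.0% of those above the median of all values were lower. Higd1a, an inner membrane protein that associates with the respiratory chain, had values of 3.05, 3.56 and 3.03 in the arrays labelled Myc knockout, against 4.22, 3.98 and 3.83 in controls (log2 difference −0.79 ± 0.17). Its groups did not overlap, but its mean in the arrays labelled Myc knockout lay just below the median of all values, so this difference is not read as an exact fold. The mitophagy receptor genes Bnip3 and Bnip3l differed by −0.32 ± 0.074 and −0.17 ± 0.067, both without overlap. Bnip3 was at 6.52, 6.57 and 6.52 in the arrays labelled Myc knockout, against 6.78, 6.99 and 6.80 in controls. Ak4, a mitochondrial adenylate kinase gene, differed by −0.23 ± 0.11 with overlapping groups. Fam162a, a mitochondrial protein gene, was at 7.92 ± 0.053 in the arrays labelled Myc knockout and 7.96 ± 0.0042 in controls.

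The 4 genes of oxygen-dependent JmjC enzymes, which like the HIF prolyl hydroxylases use oxygen and 2-oxoglutarate, were all lower without overlap between the groups, where 10.6% of all genes and 18.7% of those above the median of all values were, and 0 passed the threshold. Kdm4b, a histone lysine demethylase gene, was at 5.07, 5.21 and 5.13 in the arrays labelled Myc knockout, against 5.61, 5.51 and 5.73 in controls (log2 difference −0.48 ± 0.078). Kdm3a, also a histone demethylase gene, was at 6.83, 6.87 and 6.68 against 7.22, 7.15 and 7.18 (−0.39 ± 0.069). Jmjd6, a lysyl hydroxylase gene, differed by −0.27 ± 0.060 and Kdm4c, a paralog of Kdm4b, by −0.19 ± 0.071.

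Genes of collagen-modifying enzymes differed little, and 0 of 6 passed. P4ha2, a catalytic subunit of collagen prolyl hydroxylase, was the only 1 of the 6 whose groups did not overlap, with 3.46, 3.60 and 3.61 in the arrays labelled Myc knockout, against 3.88, 3.83 and 4.11 in controls (log2 difference −0.38 ± 0.092). Its paralog P4ha1 was much brighter and differed by −0.092 ± 0.067. The lysyl hydroxylase genes Plod1 and Plod2 differed by −0.041 ± 0.098 and −0.15 ± 0.092. Loxl2, which encodes a lysyl oxidase that crosslinks collagen, varied more between arrays than between groups (4.79 ± 0.24 in the arrays labelled Myc knockout and 5.03 ± 0.38 in controls). Lox, its relative, lay below the median of all values in both groups (1.89 ± 0.20 and 1.86 ± 0.12).

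Car12 had the most positive difference of the 3 members with a higher mean in the arrays labelled Myc knockout. This membrane carbonic anhydrase gene was at 6.46, 6.53 and 6.55 in the arrays labelled Myc knockout, against 6.45, 6.20 and 6.23 in controls (log2 difference 0.22 ± 0.083). The groups did not overlap, although the lowest array labelled Myc knockout nearly met the highest control, and the gene did not pass the threshold. Car9, the carbonic anhydrase gene most used as a hypoxia marker, was dim at 3.77 ± 0.15 in the arrays labelled Myc knockout and 3.83 ± 0.18 in controls.

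Hilpda fell among the genes of lipid and glycogen storage. Hilpda, which promotes lipid droplets by inhibiting triglyceride breakdown, was at 5.44, 5.48 and 5.47 in the arrays labelled Myc knockout, against 6.19, 6.19 and 5.98 in controls, a 1.58-fold fall (log2 difference −0.66 ± 0.074). Gbe1, the glycogen branching enzyme gene, had 5.33, 5.06 and 5.24 against 5.87, 5.84 and 5.74, and its difference of −0.61 ± 0.085 lay just outside the threshold. Under median centring or array weights Gbe1 also passed. Ppp1r3c, which brings a phosphatase to glycogen, was below the median of all values in both groups (2.49 ± 0.12 and 2.61 ± 0.12).

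The remaining 4 genes were lower by similar amounts, and 0 passed. Zfp395, a zinc finger gene, was at 4.15, 4.49 and 4.46 in the arrays labelled Myc knockout, against 4.72, 4.75 and 4.58 in controls (log2 difference −0.32 ± 0.11). Ero1a, which oxidises protein disulfide isomerase in the endoplasmic reticulum, was the brightest of the 34, with 11.19, 11.24 and 11.24 against 11.41, 11.50 and 11.46 (−0.24 ± 0.056). Narf, a nuclear protein that binds prelamin A, differed by −0.22 ± 0.080 without overlap, and Ankzf1, a factor of ribosome-associated quality control, by −0.20 ± 0.086 with overlap.

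**Figure D2:**
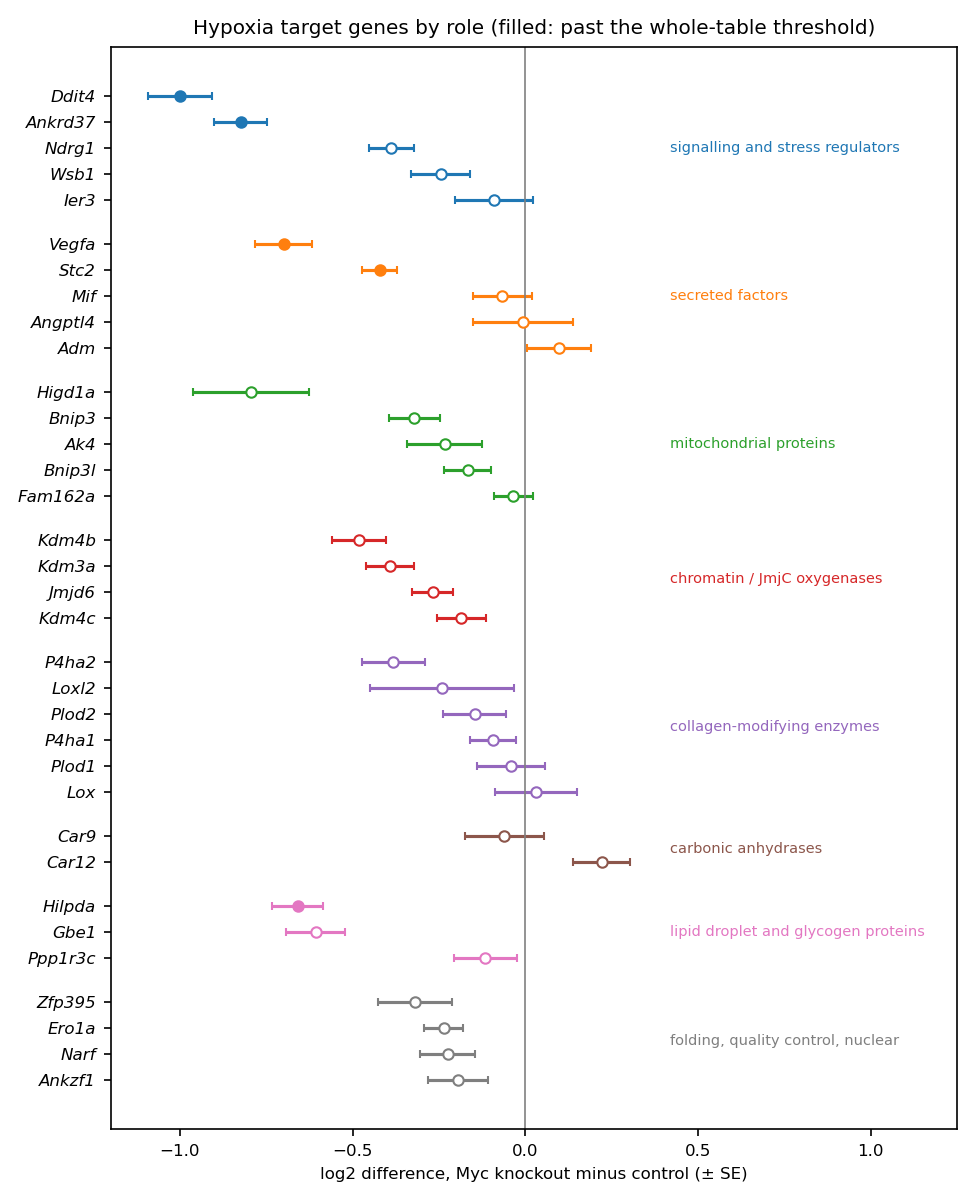
Log2 difference between arrays labelled Myc knockout and control arrays (horizontal axis; bars are ± SE) for each of the 34 genes, grouped and coloured by role; filled points passed the threshold over all genes. The differences run from −1.00 for Ddit4 to 0.22 for Car12, and 31 of the 34 points lie left of 0.

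Differences did not follow brightness. Over the 34 genes, Spearman's rho between the control level and the log2 difference was −0.15, given as a description of genes that share the same 6 arrays. The 4 members with control levels over 8 (Ero1a, Mif, Ier3 and Ndrg1) differed by −0.39 to −0.066, whereas the 5 that fell had control levels between 6.12 and 7.73.

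**Figure D3:**
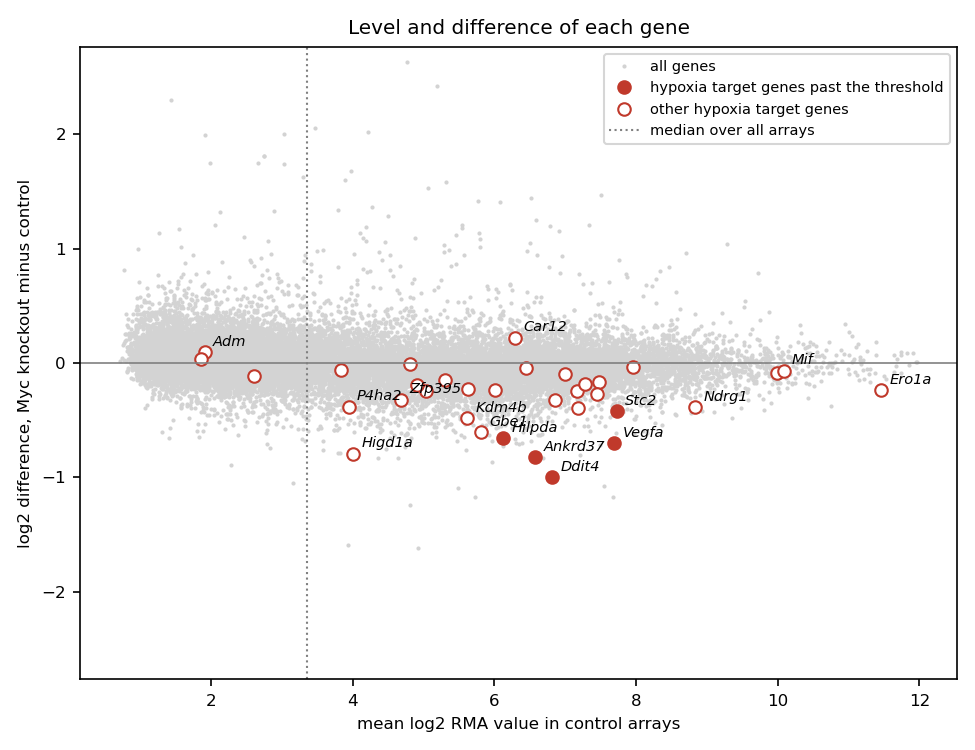
Mean log2 RMA value in control arrays (horizontal axis) against the log2 difference, arrays labelled Myc knockout minus control (vertical axis), for all 23185 genes (grey) and the 34 hypoxia target genes (red; filled where the threshold was passed). The members that fell lie in the middle of the range of levels, and the dotted line marks the median of all values, 3.35.

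Response element cores stood before most members, fallen or not. In the 250 bases before the most upstream annotated start of each gene, ACGTG or GCGTG stood on either strand in 20 of 26 members (76.9%), against 44.8% of 17452 measured genes with a promoter and 57.4% of those above the median of all values. ACGTG stood in 13 of 26 members (50.0%), against 18.1% of all measured genes and 22.4% of the brighter ones. CACGTG, which overlaps ACGTG, stood in 3 of 26 (11.5%), against 6.84% and 8.72%. Median G+C content was 60.6% in members, 55.6% in all genes and 60.0% in the brighter genes. The genes were listed as known HIF targets, so a share above that of other genes is a description.

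Of the 5 genes that fell, Ankrd37, Ddit4 and Stc2 held ACGTG or GCGTG in that window and Vegfa and Hilpda did not. Ankrd37 held ACGTG 241 and 6 bases before its start and GCGTG on either strand between them. Only the ACGTG 6 bases before the start of Ankrd37 lies within the 30 bases shown. Ddit4 held ACGTG 187 and GCGTG 115 bases before its start, as printed above. Vegfa and Hilpda each had a later annotated start with cores before it. There ACGTG stood 43 bases before the start of Hilpda, within the 30 bases shown, and 211 bases before that of Vegfa, on the opposite strand. Over all annotated starts, all 5 genes that fell and 18 of the 21 other members with a promoter held a core. No share over all genes was computed for that count, and a gene with several starts has more windows. With 1 window per gene, 3 of the 5 that fell (60.0%) held a core. That share was 76.9% for the members and 57.4% for genes above the median of all values. Fam162a, whose difference was −0.034 ± 0.055, held 6 such motifs, and Gbe1, at −0.61, held 0. CACGTG stood before the most upstream starts of Bnip3, Wsb1 and Ppp1r3c and before later starts of Ak4 and Kdm4c, and 0 of these 5 passed the threshold. A match of letters is not a bound site, and elements farther than 250 bases from the start were not searched.

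Other hypoxia targets, known as such and not among the 34, also included genes that fell. This list too was chosen with earlier results of these data known, so nothing is read from its counts. Egln1 and Egln3 are in both this list and the list of oxygen sensing described below. Of 45 measured, 32 were lower and 13 higher in mean log2 value, and the median log2 difference was −0.075. In mean value 47.8% of all genes and 58.0% of those above the median of all values were lower. Past the threshold over all genes 5 fell and 0 rose, where 0.198% of all genes fell and 0.254% rose. Only 31 of the 45 lay above the median of all values, and the median of these was −0.17, against −0.24 for the 31 brighter genes among the 34. Pfkfb3, a regulator of glycolytic flux, had values of 5.65, 5.67 and 5.74 in the arrays labelled Myc knockout, against 6.35, 6.39 and 6.41 in controls (limma's adjusted p = 0.0162). Bhlhe40, a transcriptional repressor gene, fell by 1.18 on the log2 scale (adjusted p = 0.0217 in limma), Mxi1, a MAX partner that opposes MYC, by 0.61 (adjusted p = 0.0272) and Bcl6, a lymphocyte repressor gene, by 0.50 (adjusted p = 0.0360). Bhlhe41, the paralog of Bhlhe40, was the fifth (limma's adjusted p = 0.0405). Dusp1 went the other way without overlap, at 7.16, 8.01 and 8.49 in the arrays labelled Myc knockout, against 6.96, 6.91 and 6.98 in controls. Its log2 difference of 0.94 ± 0.31 did not pass the threshold (limma's adjusted p = 0.250). Leaving out any 1 array or fitting the replicate block left 0 of the 45 past the threshold.

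The glycolytic branch and the oxygen sensors were lower by less than the 34 genes in their medians. The 34 genes were listed with this comparison known and include several that fell in it, so this order of medians is only a description. Pfkfb3, the regulator of glycolytic flux that fell, was counted with the other hypoxia targets and not with the glycolysis targets. Of 17 measured glycolysis targets, 13 were lower, where 47.8% of all genes and 58.0% of those above the median of all values were. In either direction 0 passed, and the median was −0.11. At an unadjusted p under 0.05, limma gave 8 lower and 2 higher, against 7.91% and 6.97% of all genes. All 17 lay above the median of all values, where 1597 of 11572 genes were lower and 899 higher at that p. Aldoc, an aldolase gene, was at 6.66, 6.88 and 6.74 in the arrays labelled Myc knockout, against 7.46, 7.27 and 7.31 in controls (limma's adjusted p = 0.0540). Of 16 genes of oxygen sensing and HIF, 0 passed, and the median was −0.069. By limma's unadjusted p under 0.05, 3 were lower and 0 were higher, against the same 7.91% and 6.97% of all genes. Of the 16 genes, 15 lay above the median of all values, where 1597 of 11572 were lower and 899 higher at that p. The 3 lower genes of this list were Vhl, Egln1 and Egln3. Egln1 and Egln3, HIF prolyl hydroxylase genes that are HIF targets themselves, had log2 differences of −0.41 ± 0.068 and −0.36 ± 0.11 (limma's adjusted p = 0.0767 and 0.213). Vhl, the ubiquitin ligase subunit gene, differed by −0.31 ± 0.064 (adjusted p = 0.109 in limma). Its 3 values in the arrays labelled Myc knockout were identical, as for Ndrg1, so their SD of 0 understates the error. Hif1a, the HIF alpha subunit gene, was at 9.81, 9.77 and 9.92 in the arrays labelled Myc knockout and 9.77, 9.79 and 9.82 in controls, with overlapping groups, and Arnt differed by −0.093 ± 0.057. HIF alpha is regulated mainly through its protein, which the arrays do not measure.

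Genes of the integrated stress response, a pathway driven by ATF4, had a median above 0. This pathway is also known to induce Ddit4, Stc2 and Vegfa, and its part in their differences was not tested. Of 19 measured, 14 were higher and 5 lower, where 47.8% of all genes and 58.0% of those above the median of all values were lower. In either direction 0 passed, and the median was 0.093. By limma's unadjusted p under 0.05, 3 were higher and 2 were lower, against 6.97% and 7.91% of all genes. Of the 19 genes, 17 lay above the median of all values, where 899 of 11572 were higher and 1597 lower at that p. Aldh1l2, a mitochondrial folate enzyme gene, had the smallest p and was lower (log2 difference −0.57 ± 0.089, limma's adjusted p = 0.0690). Ddit3 was the other of the 2 lower genes (−0.40 ± 0.079, limma's adjusted p = 0.0999). Atf4 was at 7.96, 7.93 and 7.99 in the arrays labelled Myc knockout and 7.93, 7.90 and 7.93 in controls. All of these lists share the same arrays as the 34 genes, and no difference between lists was tested.

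**Figure D4:**
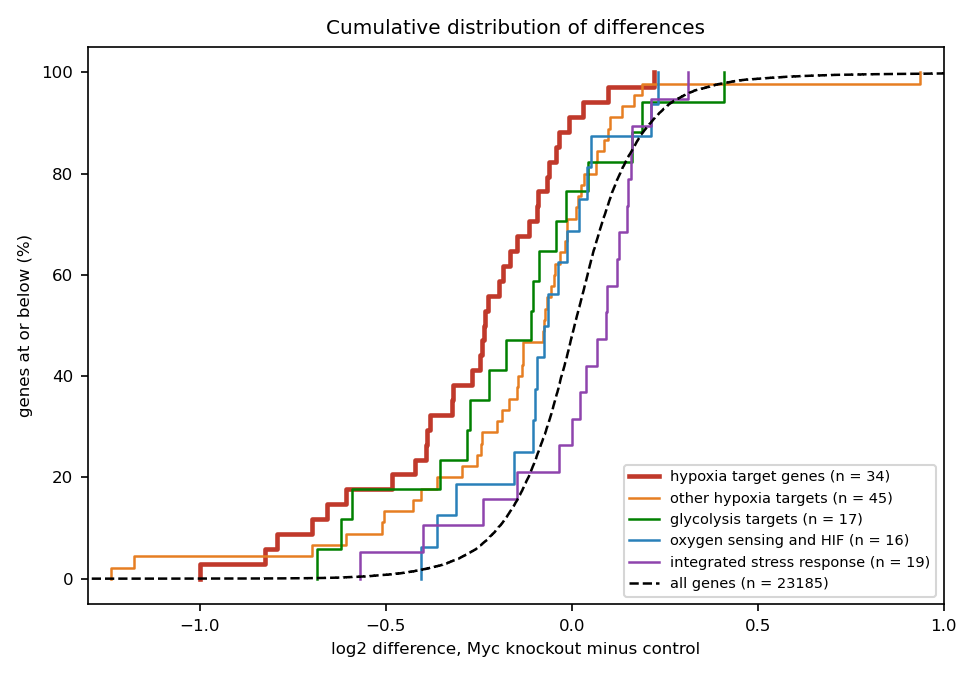
Cumulative share of genes (vertical axis, percent) at or below a log2 difference between arrays labelled Myc knockout and control arrays (horizontal axis), for the 34 hypoxia target genes (thick red), the 4 pathway lists and all genes (dashed). The red curve is farthest left through its middle, with medians of −0.23 for the 34 genes, −0.11 for glycolysis targets and 0.093 for the integrated stress response.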

How the data were processed

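Total RNA of an ILC2 line was measured on 6 arrays, 3 per group, grouped by sample title. The values as deposited are log2 values from RMA, per the submitters' processing notes, which also name limma 3.14.4. RMA subtracts background, gives all arrays 1 distribution and summarises each probe set, so it hides any change common to all genes. The array version, probe definition and build were not stated in the labels. The number of arrays limits the precision.

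The table held 25206 probe sets, with 1 gene symbol for 23185, several for 0 and none for 2021. No filter was applied. Differences, arrays labelled Myc knockout minus control, were fitted over all named genes in R 4.3.3 with limma 3.58.1 (lmFit, eBayes, no covariate, two-sided, Benjamini-Hochberg adjusted p under 0.05); values after ± are SE for differences and SD for group means. The fit was tested on simulated data. It recovered 34.6% of log2 changes of 0.5, 85% of 1, 83.4% of −1 and 95.4% of −1.5, and 4.94% of calls were false. A gene that did not pass is thus not shown to be unchanged. Alternatives were a replicate block, an intensity trend, array weights, median centring, cyclic loess, a filter on dim genes, leaving out single arrays, including unnamed probe sets and a threshold of 0.1. Figures used matplotlib 3.10.9.

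The members and lists were chosen with earlier results of these data known. Every member was named. Values per array were given for members past the threshold, for the member of each role with the largest difference and for some others chosen after their values were seen. Of other lists, up to 4 genes past the threshold, or else the gene with the smallest p, were named, as were Myc, Hif1a, Arnt, Vhl, Egln1 and Egln3. Itgam, Mcpt8, Cd3g, Pecam1, Thy1, Il17rb, Dusp1 and Ddit3 were named after their values were seen. Some list entries, Gpi1, Gapdh, Eno1, Phgdh and Lyz2 among them, are not analysed here.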

Additional observations from a re-analysis of the deposited data

How the results depend on the processing

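With 3 arrays per group, the calls rest on every array. Without any 1 array, the members that fell numbered 0 to 0, the other hypoxia targets that fell 0 to 0, all genes that fell 0 to 1 and all genes that rose 0 to 2. At limma's unadjusted p under 0.05 these fits gave 15 to 19 members lower and 0 to 1 higher. Over all 23185 genes they gave 1454 to 1688 lower and 1311 to 1572 higher. The members were listed with this comparison known, so nothing is read from these counts. With the replicate number as a block, 0 members, 0 other hypoxia targets and 0 genes in all fell and 0 rose. Deviations of same-numbered arrays from their group means had correlations of −0.070, −0.012 and −0.017 over all genes. These values cannot show whether such arrays shared a culture or transduction, which the labels do not give. With an intensity trend 10 members, 4 glycolysis targets, 1 oxygen sensing gene, 1 integrated stress response gene and 208 genes in all fell and 162 rose. Among genes at or above the median level these counts were 11, 5, 2, 2, 345 and 204, and at an adjusted p under 0.1 they were 9, 2, 1, 2, 228 and 185. Cyclic loess called 1 glycolysis target as fallen. The median of the 34 genes lay between −0.27 and −0.21 without any 1 array. The same ranges were −0.12 to −0.054 for other hypoxia targets, −0.19 to −0.088 for glycolysis targets, −0.093 to 0.010 for oxygen sensing and 0.051 to 0.10 for the integrated stress response. The glycolysis median was −0.13 under median centring, the median of other hypoxia targets was −0.17 among brighter genes, and the integrated stress response median was 0.068 under median centring, 0.070 under cyclic loess and 0.068 among brighter genes. Members near 0 changed sign: under cyclic loess Angptl4 stood at 0.037 and Lox at −0.0058, and without 1 array the range was −0.12 to 0.12 for Angptl4, −0.11 to 0.054 for Plod1, −0.14 to 0.040 for Car9, −0.16 to 0.034 for Ier3 and −0.075 to 0.13 for Lox. The cause was not tested.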
